A study of Drosophila melanogaster with 3 samples.

Results

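The vacuolar proton pump, or V-ATPase, is described here through the genes of Drosophila melanogaster whose FlyBase symbol begins with Vha. The annotation (Ensembl release 115) holds 33 of them, 13 for the V1 sector, 18 for the V0 sector and 2 for an accessory protein. A transcript model was taken as a member when its gene or transcript identifier held the FlyBase number of such a gene. Of 5980 models in the assembly, 29 met this rule, and they belonged to 20 of the 33 genes. The other 13 genes had no model in the assembly analysed here.

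The RNA came from heads of untreated adult flies of the wild-type strain w1118, aged 3 days and kept at 25C on apple juice food. All 3 samples formed a single group with no control or contrast. Each library was made from 4 µg of total RNA by FLAM-seq, in which polyadenylated RNA is copied as whole molecules through the poly(A) tail and read on a PacBio sequencer. The authors merged the 3 samples before they built the models, so every value below describes 1 pooled assembly, with no spread between samples and no test.

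The V-ATPase is a rotary enzyme that splits ATP and moves protons across membranes, and it acidifies lysosomes, endosomes and synaptic vesicles. Its V1 sector lies in the cytosol, where subunits A and B form the ATP-splitting head, D and F the central rotor, E and G the outer stalks, and C and H the links to the membrane. Its V0 sector lies in the membrane, where a ring of c and c'' subunits turns against subunit a, with d on top of the ring and e as a small membrane protein. In neurons the proton gradient drives the loading of neurotransmitter into synaptic vesicles. Several subunits are encoded by more than 1 gene in the fly, and such genes are called paralogues below.

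Models of the same Vha gene differed at the 3′ ends in 3 genes, at the start and first exon in 2, and at a few splice sites or kept introns. Sequences of the 3′ ends and of some splice sites come first. The 3′ end of a model is its last base, taken here as the site where the poly(A) tail begins. Most model ends repeat an annotated end within 1 nt and are not independent measurements to the nucleotide. Among the ends printed below, this holds for end 3 of Vha55, end 2 of VhaSFD and end 1 of VhaPPA1-1. The poly(A) signal is the hexamer that guides cleavage a little upstream of the 3′ end. The 7 sequences below are the last 30 bases of the models that end at each 3′ end of the genes with several 3′ ends, numbered from upstream to downstream. They run 5′ to 3′ on the minus strand of build dm6. Capitals mark the poly(A) signal, taken as the first hit in a fixed order of 12 hexamers that begins with AATAAA and ATTAAA.
Vha55 end 1, chr3R:12624602-12624631: accacaATTAAAccacaaaatatctaatct
Vha55 end 2, chr3R:12623989-12624018: taaattaatgaatattaCATAAAgttgcat
Vha55 end 3, chr3R:12623763-12623792: tgAATAAActacacaccaaatcatgttaaa
VhaSFD end 1, chr2L:16723473-16723502: agcaactatcctctacaaattgttccattc
VhaSFD end 2, chr2L:16723233-16723262: aaaAATAAAtcaaataagcataattaaaac
VhaPPA1-1 end 1, chr3R:14902331-14902360: aaagtattccatattaaaacaAATAAAata
VhaPPA1-1 end 2, chr3R:14902067-14902096: tgaatattacgaATTAAActtatttgaatc
The sequences show AATAAA at the most downstream end of Vha55 and of VhaSFD, and ATTAAA at that of VhaPPA1-1. End 1 of VhaSFD had none of the 12 hexamers in these 30 bases.

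The next sequences show where splicing differed between models of a gene or between close paralogues. Capitals mark the first 2 or the last 2 bases of the intron. Donors are shown with 12 exon bases before the intron, and acceptors with 12 exon bases after it. The Vha68-2 donor is on the plus strand, and the others are on the minus strand.
Vha68-1 intron 3 donor, chr2L:13002611-13002634: gtcatttcgcagGCaagttgcaaa
Vha68-2 intron 3 donor, chr2L:12976812-12976835: gtgatctcgcagGTgagagtccca
VhaSFD model A intron 5 donor, chr2L:16724057-16724080: caaaagctgatgGTacacaattgg
VhaSFD model B intron 5 donor, chr2L:16724046-16724069: ggtacacaattgGTtagtatggac
VhaSFD model A intron 5 acceptor, chr2L:16723990-16724019: ccccttctccacattcAGgtccagtgatcc
VhaSFD model B intron 5 acceptor, chr2L:16723886-16723915: tctctttgtttttatcAGggaatacctggg
Vha55 model A intron 1 acceptor, chr3R:12627564-12627593: aatcgtatctaattgcAGctcgaaatttgc
Vha55 model C intron 1 acceptor, chr3R:12627550-12627579: gcagctcgaaatttgcAGtgcactttcaag
Both acceptors of Vha55 lie in the same stretch, so the letters of the second sequence overlap those of the first.

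Models were present for 20 of 33 Vha genes, or 60.6%, where 33.4% of the 13945 protein-coding genes on the 6 chromosome arms had one. By sector, 9 of 13 V1 genes, 10 of 18 V0 genes and 1 of 2 accessory genes had a model. The 33 genes encode 14 kinds of subunit, and 13 kinds had a model of at least 1 gene. Subunit C, encoded by Vha44 alone, was the kind with none. Vha44 has another identifier in older annotation than in the release used here, and neither was found in the assembly. None of the 175 models without a gene identifier overlapped a Vha gene, so these models added no member.

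**Figure D1:**
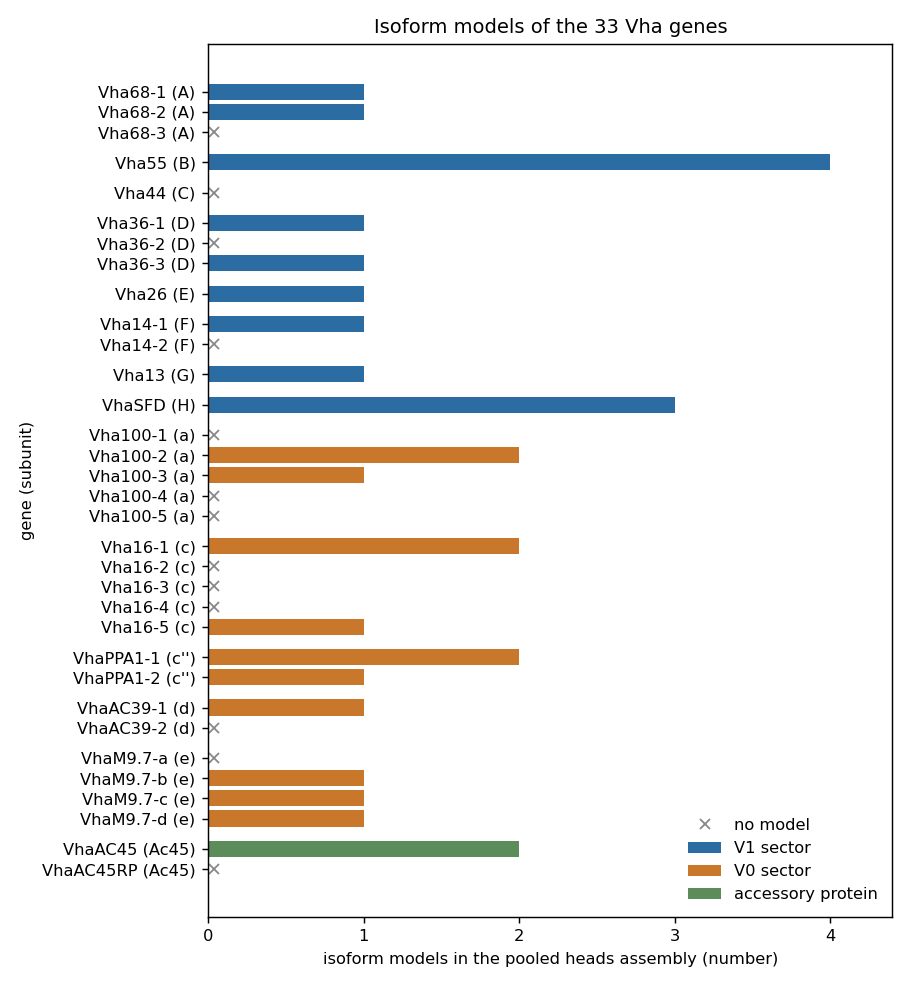
Number of isoform models in the pooled heads assembly (horizontal axis) for each of the 33 Vha genes (vertical axis, with the subunit in brackets). Bars are coloured by sector and crosses mark genes with no model. Vha55 has 4 models and VhaSFD 3, and 13 genes have a cross.

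Of the 9 kinds of subunit with several paralogues, 6 had models of more than 1 of them. In the V1 sector, subunit A was represented by Vha68-1 and Vha68-2 and not by Vha68-3, subunit D by Vha36-1 and Vha36-3 and not by Vha36-2, and subunit F by Vha14-1 and not by Vha14-2. Subunits B (Vha55), E (Vha26), G (Vha13) and H (VhaSFD) have 1 gene each, and each had a model. In the V0 sector, subunit a was represented by Vha100-2 and Vha100-3, while Vha100-1, Vha100-4 and Vha100-5 had no model. Vha100-1 is known as the neuronal subunit a of synaptic vesicles, and its shortest annotated transcript measures 2898 nt. The proteolipid c was represented by Vha16-1 and Vha16-5 of 5 paralogues, and c'' by both of its genes, VhaPPA1-1 and VhaPPA1-2. For VhaPPA1-2 this rests on the gene identifier, since its model was listed on the other strand. Subunit d was represented by VhaAC39-1 and not by VhaAC39-2, and subunit e by VhaM9.7-b, VhaM9.7-c and VhaM9.7-d of 4 paralogues. The accessory protein Ac45, which binds the membrane sector, was represented by VhaAC45 and not by its relative VhaAC45RP.

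Why a gene had no model here was not tested, and numbers of reads are not used, so its level in heads is not known from these values. The shortest annotated transcript of the 20 Vha genes with a model had a median of 1570 nt (494 to 3006 nt), and that of the 13 without one a median of 1296 nt (471 to 2898 nt). The ranges overlapped nearly in full. Over all coding genes the order was the other way, with medians of 1347 nt for those with a model and 1668 nt for those without. In the length class under 1000 nt, 7 of 12 Vha genes had a model, where 37% of all coding genes of that class did. From 1000 to below 2000 nt it was 5 of 9 against 42.1%, and from 2000 to below 3000 nt it was 7 of 11 against 32.4%. Vha100-2, at 3006 nt, was the 1 Vha gene in the class from 3000 to below 4000 nt, where 14.5% of coding genes had a model. The share of Vha genes was above that of all coding genes in each of these classes, and with 12 genes or fewer per class no weight is put on the order of the classes.

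**Figure D2:**
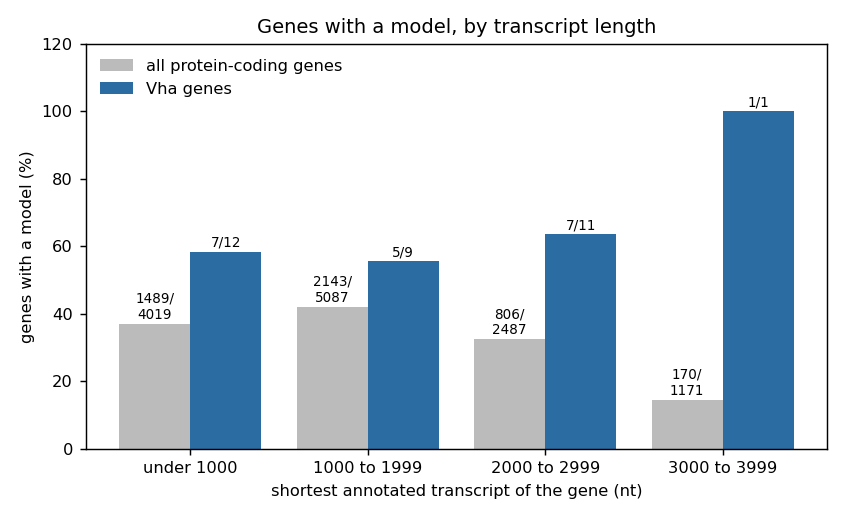
Percentage of genes with a model (vertical axis) by the length of the shortest annotated transcript of the gene in nt (horizontal axis), for all protein-coding genes in grey and Vha genes in blue. Numbers over the bars give genes with a model over all genes of the class, and the last class holds 1 Vha gene.

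Paralogues with a model were not always the closest in protein sequence, as aligned from the annotated proteins. Vha68-1 and Vha68-2 both had a model and share 91.9% of aligned residues, against 72.1% and 74.6% with Vha68-3. Vha36-1 and Vha36-3, also both with a model, share 85%, and Vha36-2 shares 38% with Vha36-1. The pattern differed in V0. Vha100-3, which had a model, shares 39% with Vha100-2, while Vha100-5 and Vha100-4, which had none, share 68% and 66% with it. Likewise Vha16-3, without a model, shares 84.1% with Vha16-1, and Vha16-5, with a model, shares 67.9%. The 2 c'' proteins share 61.8%, and the 2 Ac45 proteins 27%.

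Some paralogues lie close to each other, and 1, both or neither of the pair had a model. Vha68-3 begins 178 nt after the end of Vha68-2 on the same strand of 2L, and the model of Vha68-2 ended at 12978607, the annotated end of that gene. Vha100-4 and Vha100-2 are 517 nt apart on the minus strand of 3R, and both models of Vha100-2 lay within its own annotated span. Vha16-3 and Vha16-2 are 985 nt apart on 3L and neither had a model. VhaPPA1-2 and VhaPPA1-1, 2052 nt apart on 3R with 1 other coding gene between them, both had models.

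The 29 models comprised 22 spliced and 7 single-exon models, with 22 TSSs (transcription start sites), 24 3′ ends and 26 combinations of a TSS and a 3′ end. A gap of over 50 nt separated neighbouring TSSs, and one of over 150 nt separated neighbouring 3′ ends. Of the 20 genes, 6 had 2 or more models, where 14.7% of the 4662 annotated genes with a model did. These were Vha55 with 4, VhaSFD with 3, and Vha100-2, Vha16-1, VhaPPA1-1 and VhaAC45 with 2 each. Vha100-2 and Vha16-1, which are 2 of the 20 genes, had 2 TSSs, against a background of 4.57%. Vha55, VhaSFD and VhaPPA1-1, which are 3 of the 20, had several 3′ ends, against 4.16%. No Vha gene had both several TSSs and several 3′ ends, and the share of all genes with both is not given here. With 2 and 3 such genes, this absence is not read as a trait of the family.

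Model length ranged from 518 nt in VhaM9.7-d to 3043 nt in Vha100-2, with a median of 1936 nt (quartiles 1137 and 2593 nt). The median of all 5980 models was 1487 nt. The reading frames, each the longest from an annotated start codon of its gene, ran from 84 amino acids in VhaM9.7-c to 904 in Vha100-3. Their median was 350 amino acids. In all 29 models the frame was identical to an annotated protein of its gene, which the use of annotated start codons made likely. The 5′ UTR was short throughout, with a median of 125 nt (38 to 240 nt). The 3′ UTR ranged from 45 nt in Vha100-3 to 2227 nt in both models of Vha16-1, with a median of 520 nt. Vha16-1 and Vha26, which encode proteins of 159 and 226 amino acids, thus had models of 2832 or 2815 nt and of 2827 nt, most of it 3′ UTR.

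**Figure D3:**
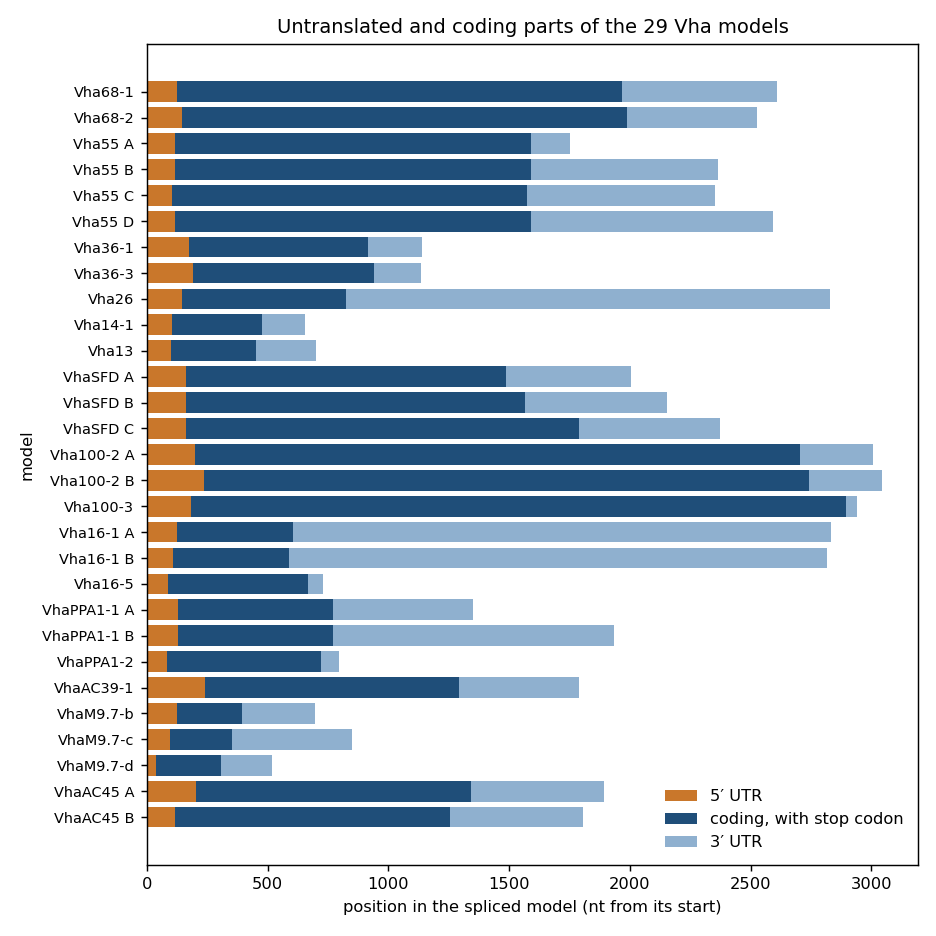
Length in nt of the 5′ UTR (orange), the coding part with its stop codon (dark blue) and the 3′ UTR (light blue) of each of the 29 Vha models, drawn from the start of the spliced model (horizontal axis). The 3′ UTRs of Vha16-1 and Vha26 exceed 2000 nt, and that of Vha100-3 measures 45 nt.

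Most ends of the Vha models coincided with ends in the annotation, so they are not independent measurements of an end to the nucleotide. Within 1 nt, 26 of 29 models began at an annotated start, where 91.4% of the 5750 models of annotated genes did, and 19 of 29 finished at an annotated 3′ end, against 74.2%. In 15 of the 29 the splice chain and both ends were those of 1 annotated transcript, against 54.5% of the models of annotated genes. By name, 21 models carried the identifier of an annotated transcript and 8 that of a read. The 8 read-named models were the 7 single-exon models and model B of VhaPPA1-1.

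Of the 22 TSSs, 20 lay within 50 nt of an annotated start, against 97.2% of the 4903 TSSs of annotated genes. Both exceptions were single-exon models. The assembly lists the 7 single-exon models on the other strand, so which end is the start was taken from the annotated gene. Their 3′ ends, and the hexamers and motifs near their ends, depend on the same choice. The model of Vha36-1 began 71 nt upstream of the annotated start and that of VhaPPA1-2 82 nt upstream. A smaller shift of 24 nt upstream was seen in VhaM9.7-d. The remaining 19 TSSs matched an annotated start within 1 nt.

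Annotated 3′ ends were within 150 nt of 20 of the 24 Vha ends, against 90.9% of 4881. The other 4 all belonged to the 3 genes with several 3′ ends. Ends 1 and 2 of Vha55 lay 295 and 227 nt upstream of the nearest annotated end and end 1 of VhaSFD 241 nt upstream, while end 2 of VhaPPA1-1 lay 263 nt downstream of it. VhaPPA1-2 ended 42 nt downstream of its annotated end, Vha100-3 6 nt, and Vha36-1 and Vha16-5 3 nt each.

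Of the 24 Vha 3′ ends, 17 held AATAAA or ATTAAA among their final 50 nt, against 66% of all 3′ ends. In 11 of the 17 it was AATAAA. Its first base lay from 9 to 33 nt before the end with a median of 24 nt, against a median of 23 nt over all ends with a signal. The 9 nt belonged to end 1 of VhaPPA1-1, which in the sequence above has a further attaaa upstream of the AATAAA in capitals. The 7 ends without either hexamer were end 2 of Vha55, end 1 of VhaSFD and the ends of Vha36-3, Vha26, Vha13, Vha16-5 and VhaM9.7-c. Each of these held another of the 12 hexamers in the 50 nt, CATAAA in Vha55, AAGAAA in Vha16-5, AATATA in VhaM9.7-c and AATACA in the others. In 2 of the 24 ends, those of Vha14-1 and VhaAC45, 7 of the next 10 genomic bases were A, against 10.4% of all ends with 7 or more.

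Promoter motifs were searched around the 22 TSSs on both strands or, for the TATA box and the initiator, on the strand of the gene. A match is a description of the letters. The E-box CACGTG is the core of the site bound by Mitf, a regulator of lysosomal and Vha genes in the fly. It was found from 250 nt before to 50 nt after the TSS in 1 of 22 cases, Vha55, against 3.9% of all TSSs. There its first base lay 72 nt before the start of the models. The annotated gene reaches further upstream, to 12627829, so this E-box lies within the annotated span of Vha55. The 30 bases around the E-box on the minus strand, with CACGTG in capitals, were as follows.
Vha55 E-box, chr3R:12627756-12627785: gtcatgtgacggCACGTGacgtcacagcag
Of the 13 genes without a model, Vha44 held CACGTG in this window at 1 of its 2 annotated starts and VhaAC45RP at its 1 annotated start. No other gene without a model held it. The 3.9% was taken over TSSs of models, so these annotated starts have no matching share beside them. TATCGATA, the DRE, was found in the same window at 1 TSS, that of VhaSFD, against 9.77%. TATAAA between 45 and 15 nt before the TSS was found at 1, the upstream TSS of Vha16-1, against 8.71%. TCAGT, a core of the initiator, lay within 10 nt of the TSS at 3, against 15.7%, namely the downstream TSS of Vha100-2, the upstream TSS of Vha16-1 and the TSS of VhaPPA1-2. These shares of Vha TSSs rest on 1 to 3 cases each.

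In all 22 spliced Vha models every intron belonged to 1 annotated transcript, against 92.5% of the 5066 spliced models. The match was to the whole chain of that transcript, first to last intron, in 21 of them. The exception was model B of VhaPPA1-1, which kept an annotated intron. The authors corrected splice junctions before the models were made, and 21 of the 22 carry the identifier of an annotated transcript. The agreement is thus not an independent check of the chains. All 22 spliced models are counted in what follows. These models held 20 distinct chains and 49 distinct introns, all annotated. Their median length was 78 nt (55 to 5582 nt), against 71 nt over the 12879 distinct introns of the assembly. The longest were intron 1 of Vha100-2 with 5582 nt in model A and 3303 nt in model B, intron 2 of Vha16-1 with 4105 nt, and intron 2 of VhaSFD with 2016 nt in models A and B. In 8 of the 21 models with 2 or more introns the first intron was the longest. The same share over all models is not given here, so the count is a description alone.

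**Figure D4:**
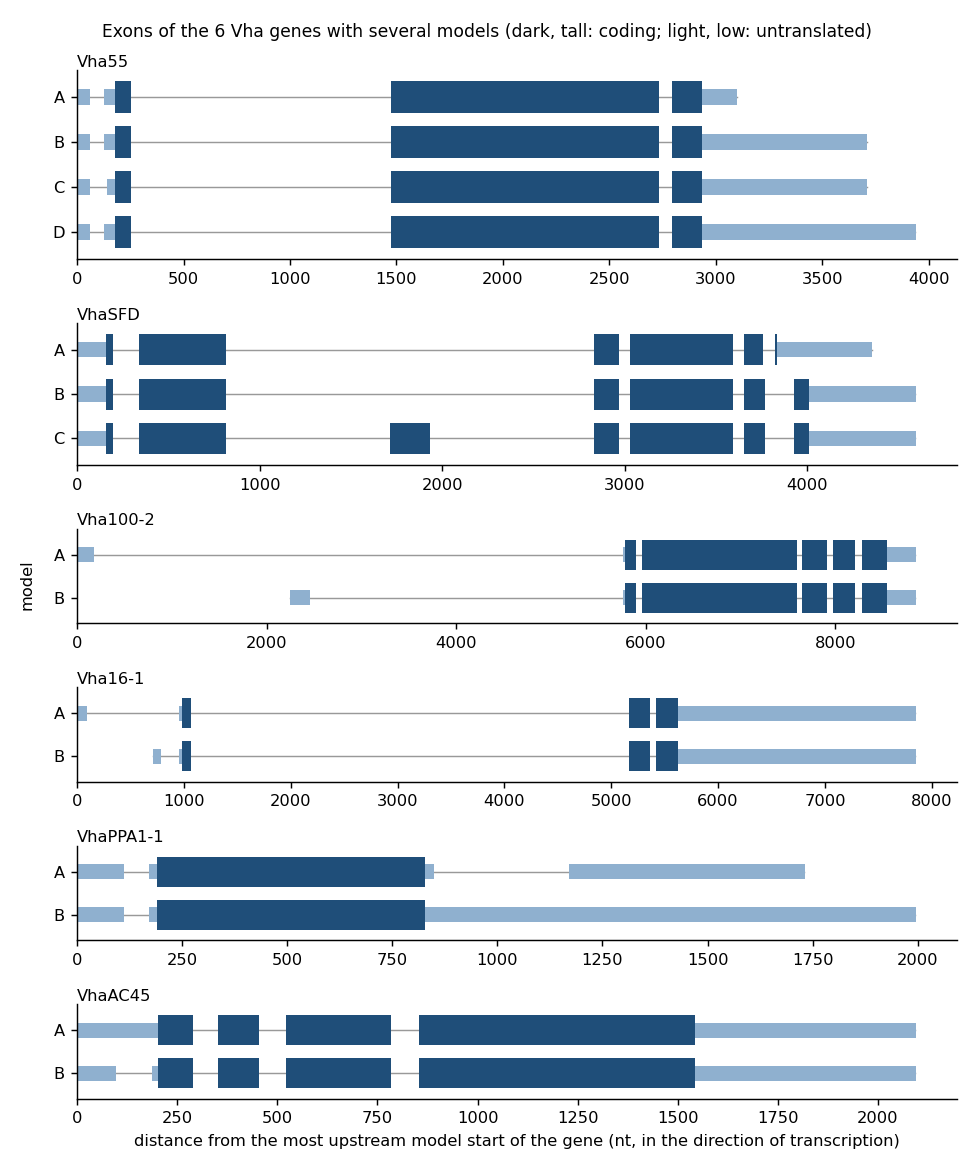
Exons of the 15 models of the 6 Vha genes with several models, drawn to scale against the distance in nt from the most upstream model start (horizontal axis, each gene on its own scale). Tall dark boxes are coding, low light boxes untranslated and lines introns. The models of Vha55 part at their 3′ ends, those of VhaSFD at a coding exon and at the last exons, and those of Vha100-2 and Vha16-1 at their first exons.

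Vha55, the gene of subunit B (3R, 12623763 to 12627701, minus strand), had 4 models that all began at 12627701 and encoded the same 490 amino acids. They differed in the length of the last exon, which measured 303 nt in model A, 916 nt in models B and C and 1142 nt in model D. The 3′ UTR was accordingly 165 nt in A, 778 nt in B and C and 1004 nt in D. End 2 lay 613 nt downstream of end 1, and end 3 a further 226 nt. Model C differed from B at the acceptor of intron 1 alone, which lay 14 nt further downstream, so that the intron measured 78 nt in place of 64 nt and the 5′ UTR 102 nt in place of 116 nt. The second exon measured 127 nt in B and 113 nt in C, and the bases between the acceptors lie in the 5′ UTR.

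VhaSFD, the gene of subunit H (2L, 16723233 to 16727826, minus strand), was the 1 Vha gene whose models encoded different proteins. Its 3 models began at 16727826 and encoded 441 (model A), 468 (B) and 542 (C) amino acids. Model C held a coding exon of 222 nt at chr2L:16725892-16726113 that A and B lacked. It split their intron of 2016 nt into introns of 896 and 898 nt, and it placed 74 residues between the first 172 and the last 296 residues of B. Model A used a donor 11 nt upstream of that of B and another acceptor for intron 5, which measured 67 nt against 160 nt. Its protein shared the first 440 residues with that of B and then stopped after 1 residue of its own. Model A also ended 240 nt upstream of B and C, with a 3′ UTR of 520 nt against 586 nt.

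VhaPPA1-1, a c'' gene (3R, 14902067 to 14904061, minus strand), had 2 models with 1 TSS and the same 212 amino acids. Model A had 3 exons and 1351 nt. Model B had 2 exons and 1936 nt, because it kept the 321 nt intron that in model A lies after the stop codon, and it ended 264 nt further downstream. The 3′ UTR therefore measured 582 nt in A and 1167 nt in B. VhaPPA1-2, its neighbour, had a single-exon model of 796 nt (3R, 14899564 to 14900359) with a 3′ UTR of 75 nt and also 212 amino acids.

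Vha100-2, a subunit a gene (3R, 18390324 to 18399169, minus strand), had 2 TSSs 2241 nt apart, each with a noncoding first exon of its own. These exons measured 178 nt in model A and 216 nt in model B and were spliced to the same second exon. The rest of the models was identical, with 1 3′ end, a 3′ UTR of 301 nt and 834 amino acids. The 5′ UTR was 199 nt in A and 237 nt in B. Vha100-3 (2R, 18908955 to 18911895, minus strand) had instead 1 exon of 2941 nt, with 904 amino acids.

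Vha16-1, the c subunit gene with 2 models (2R, 6625243 to 6633090, minus strand), followed the same plan as Vha100-2. Its TSSs lay 706 nt apart, with noncoding first exons of 96 and 79 nt joined to the same second exon of 114 nt. Both models ended at 6625243 after a last exon of 2432 nt. Vha16-5 (2L, 10736316 to 10737043, minus strand) had 1 exon of 728 nt, 193 amino acids and a 3′ UTR of 60 nt.

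VhaAC45, the accessory gene (2R, 9207562 to 9209655, plus strand), had 2 models that differed in 1 intron of 88 nt in the 5′ UTR. Model A kept it, with a 5′ UTR of 203 nt, and model B spliced it out, with 115 nt. Both encoded 379 amino acids and had a 3′ UTR of 550 nt.

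The 2 subunit A genes with a model were alike in structure. Vha68-1 (2L, 13000771 to 13004107, minus strand) and Vha68-2 (2L, 12974323 to 12978607, plus strand) each had 5 exons and 614 amino acids, with a length of 2609 and 2527 nt. Exons 3 and 4 measured 698 and 978 nt in both. The first intron measured 325 nt in Vha68-1 and 1170 nt in Vha68-2. Intron 3 of Vha68-1, of 85 nt, began with GC in place of GT, as in the sequence above, and was the 1 of 49 distinct Vha introns that was not flanked by GT and AG. Of the 12879 distinct introns of the assembly, 100 or 0.776% were flanked by GC and AG. The corresponding intron of Vha68-2, of 108 nt, began with GT.

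The other V1 genes had 1 model each. Vha36-1 of subunit D (2R, 15541364 to 15542501, plus strand) had a single exon of 1138 nt with 246 amino acids, whereas its paralogue Vha36-3 (X, 2579092 to 2580404, minus strand) had 4 exons, 1137 nt and 249 amino acids. The paralogues thus had mRNAs of nearly the same length, with and without introns. Vha26 of subunit E (3R, 5591764 to 5595356, plus strand) had 5 exons, the last of 2110 nt, and a 3′ UTR of 2002 nt. Its 3′ end met the 3′ end of models of kra, on the opposite strand, with a gap of 0 nt. Vha14-1 of subunit F (2R, 15679431 to 15680084, minus strand) had 1 exon of 654 nt with 124 amino acids. Vha13 of subunit G (3R, 19643259 to 19644386, minus strand) had 3 exons, 702 nt and 117 amino acids.

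Small V0 genes also had 1 model each. VhaAC39-1 of subunit d (X, 3880749 to 3882967, plus strand) had 3 exons, 1791 nt, 350 amino acids and a 5′ UTR of 240 nt, the longest of the set. The e subunit genes encoded 84 to 89 amino acids. VhaM9.7-b (3L, 21539863 to 21540698, plus strand) had 3 exons and 698 nt. VhaM9.7-c (3L, 4186018 to 4186865, minus strand) and VhaM9.7-d (3R, 16975180 to 16975697, plus strand) had 1 exon each, of 848 and 518 nt. VhaM9.7-c lay inside CG18675 and Teh2 without sharing exons with either, and the exon of VhaPPA1-2 overlapped an exon of CG3817 on the opposite strand. Vha100-3 lay inside sano in the same way. These neighbouring genes, kra included, were picked with their values known.

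Single-exon models made up 7 of the 29 Vha models, against 11.9% of the models of annotated genes. They were the models of Vha36-1, Vha14-1, Vha100-3, Vha16-5, VhaPPA1-2, VhaM9.7-c and VhaM9.7-d. All 7 genes have only single-exon transcripts in the annotation, as do 9 of the 33 Vha genes. The assembly lists the 7 models on the other strand, and they were turned to that of the gene here. For VhaPPA1-2, whose exon overlaps one of CG3817, the gene was therefore assigned by the identifier and not by the strand. The strand listed for this model is that of CG3817. How often other single-exon models of the assembly were listed on the opposite strand is not given here. The reversal is thus not read as a trait of these 7 genes.

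Related genes were covered unevenly, and the counts below stand against the 33.4% of coding genes with a model. That share was 14.5% from 3000 to below 4000 nt and 3.64% from 4000 nt, and the lists were not matched in length. The shortest annotated transcripts of the genes without a model in these lists run from 2177 nt (prt) to 11139 nt (Rbcn-3A). Those of the genes with a model run from 651 nt (Npc2a) to 5501 nt (VGlut). Of 4 genes for assembly and regulation of the pump, mtd, a TLDc protein gene, had 2 models from 2 TSSs, and Mitf and the rabconnectin genes Rbcn-3A and Rbcn-3B had none. A list of 8 vesicular transporter and ClC family genes was taken as transporters of the proton gradient. Whether each of them, ClC-a included, uses that gradient was not examined. Of the 8, 2 had a model, VGlut, the vesicular glutamate transporter, and the chloride transporter gene ClC-b. The model of VGlut measured 927 nt, where the shortest annotated transcript has 5501 nt. Of 10 lysosome genes 9 had a model, all but Npc1a. In this list Gba1b had 2 3′ ends and Cln3 2 TSSs. ATP6AP2, an accessory protein gene of the pump whose older symbol began with Vha, lies outside the rule, was chosen after its value was seen and had 1 model.

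The F-type ATP synthase, the related rotary enzyme of mitochondria, had models for 9 of its 15 genes with a symbol beginning in ATPsyn, against 33.4% of coding genes, with 11 models in all. Of these 9 genes, 0 had several TSSs and 1 had several 3′ ends, where 4.57% and 4.16% of all genes with a model did. A single-exon model was found in 0 of them. The same counts in the 20 Vha genes were 2, 3 and 7. No test of the difference was made. The labelled tissue was checked with marker genes, of which 5 of 7 for photoreceptors, 4 of 4 for muscle, 2 of 5 for neurons and 1 of 5 for testis or ovary had a model, again against 33.4%. The photoreceptor markers without a model were ninaC and trp, and the testis marker with one was Mst84Da. The neuronal markers without a model were elav, Syt1 and brp, whose shortest annotated transcripts measure 2248, 3987 and 5562 nt.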

How the data were processed

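FLAM-seq of 3 heads samples was analysed as 1 pooled assembly. The deposited values are positions where exons of isoform models start and end on dm6 (unit: other). A further whole number per model, whose meaning is not stated, was not used, so that depth and precision per model are unknown here. The authors merged reads, mapped them with STARlong and made models with FLAIR, with splice junctions corrected by short reads, 5′ ends supported by the Eukaryotic Promoter Database and more than 1 full-length read per model. The sources used here do not say whether their later 3′ end filter was applied. The submitters' processing notes also name featureCounts. Coordinates fitted the reference genome, where 99.1% of distinct introns were GT-AG.

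From these coordinates, ends were grouped by single linkage (50 nt for TSSs, 150 nt for 3′ ends) and set against Ensembl release 115 with Python 3.11.15, numpy 2.4.6 and Biopython 1.88, after tests on simulated models. Reading frames and protein identities come from the annotation and genome. Symbols were matched to the annotation for all genes of the lists, through synonyms for Cp1 and nos. Named genes are all Vha genes and members of the lists for assembly and regulation, proton gradient transporters and lysosome. Tissue markers without a model, Mst84Da, the genes that overlap or adjoin a Vha gene and ATP6AP2 lie outside this rule and were named after their values were seen. Members, lists and windows were chosen with earlier results of these data known. No tests were possible with 1 assembly, and alternatives are given in the closing section.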

Additional observations from a re-analysis of the deposited data

How the results depend on the processing

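A set of 11 Vha counts and medians was recomputed under 2 or 3 alternatives each, 28 in all, and 23 values stayed within 1.5 times the reported one. The other counts, among them those of single-exon models, the TATA box, the initiator and the DRE, have no alternative. Spliced models alone left 13 of the 20 genes with a model. A window of 300 nt left 1 gene with several 3′ ends, Vha55, in place of 3. AATAAA alone was found at 11 of the 17 ends with a signal. CACGTG was found at 2 TSSs when the window began 500 nt before the TSS, and the longer motif TCACGTGA at 0, in place of 1. With the whole annotated chain required, 21 of 22 spliced models matched. The 20 genes and 29 models did not depend on whether the gene field alone was read or whether models without an identifier were added by overlap. No paired analysis was possible because the assembly is pooled and no sample has values of its own, and no sample could be left out. Depth per model is unknown, so a missing paralogue or isoform may be a limit of the reads or of the filters, which was not tested. Model ends mostly repeat annotated ends, and small differences between ends carry little information.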
